A study of Mus musculus with 4 samples.

Results

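Of the 54532 rows of the gene count table, 300 carried the symbol of a ribosomal protein pseudogene, that is, a ribosomal protein gene name (Rpl or Rps) followed by -ps and usually a number. They were picked by symbol alone, and each was set beside its parent, the gene named before -ps. The family had been proposed because of the change of Rps6-ps4 between the genotypes, so the values of that pseudogene are given as a description with no test. By the labels the libraries came from tumor-associated macrophages (TAMs) of subcutaneous tumors grown from NB9464, a murine MYCN-amplified neuroblastoma line. The cells were implanted into C57BL/6 mice aged 4 to 6 weeks, and tumors were taken on day 40. In Syk MC-KO mice, floxed alleles of the spleen tyrosine kinase gene are cut by a Cre recombinase driven by the lysozyme M (Lyz2) promoter, which is active in myeloid cells, and Syk MC-WT mice served as controls. Each genotype had 2 libraries (Syk MC-WT: M7, M8; Syk MC-KO: M9, M10), made from cells taken with CD11b and F4/80 magnetic beads after no treatment. The labels are not of one voice on the source, since the same protocol also says that RNA came from BMDMs (bone marrow-derived macrophages) and the name of the count table refers to an adoptive transfer. The labels do not say which animals or pools stand behind a library, so p-values measure only the spread between these libraries.

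The labels were checked before any comparison. Syk had 765 and 569 counts in M7 and M8 and 4033 and 2944 in M9 and M10, so the targeted gene was higher under the label Syk MC-KO (log2 fold change 2.80, SE 0.19, adjusted p = 0.000674, edgeR quasi-likelihood test). Lyz2, the promoter donor of the Cre, went the other way (log2 fold change -4.13, SE 0.43, adjusted p = 0.00156). Because of the Syk counts, the libraries labelled Syk MC-KO are named by their label only, and a direction below is a direction between labels. What the Lyz2 change means for the labels was not tested. Library totals lay between 20755886 and 23518045 counts. Mitochondrial transcripts took 2.20% and 2.34% of the counts of M7 and M8, against 6.00% and 15.9% in M9 and M10. Cell type markers moved with the labels as well: all 10 macrophage markers and all 6 pan-leukocyte markers passed the test as higher in M9 and M10, with summed macrophage markers at 776 to 1122 CPM (counts scaled to library size with TMM factors) in M7 and M8 and 5799 to 9212 in M9 and M10. Of the other lists, 4 of 5 neutrophil and 4 of 5 T cell markers were higher, and 5 of 8 fibroblast and 2 of 4 endothelial markers were lower. Summed fibroblast markers were at 12626 to 14531 CPM in M7 and M8 and 4039 to 4958 CPM in M9 and M10. Summed levels in M7 and M8 against M9 and M10 were 23.7 to 36.99 against 186 to 387 CPM for neutrophil, 4.19 to 8.82 against 30.2 to 53.9 for T cell and 153 to 157 against 109 to 122 for endothelial markers. Of the tumor genes, Mycn, the oncogene amplified in NB9464, had 609, 525, 604 and 799 counts in M7, M8, M9 and M10 and passed as higher under TMM (log2 fold change 0.74, adjusted p = 0.0415, edgeR), while Th and Dbh, enzymes of catecholamine synthesis, had 0 counts in every library. In bulk RNA, fewer cells of a type and less RNA per cell cannot be told apart. The part of these shifts in the results below was not tested.

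Processed pseudogenes arise when a spliced messenger RNA is copied back into DNA and inserted at a new place in the genome, without introns and usually without a promoter of its own. Ribosomal protein genes, which are short and strongly transcribed, have left many such copies in mammalian genomes. A young copy can be letter for letter the messenger RNA it came from. A sequenced fragment from a stretch that parent and copy share fits both, and a quantifier such as Salmon divides such fragments between them by an iterative estimate, so that each row of the table is an estimate and not a tally of fragments seen at one place only.

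The sequences show how close the copies are. Each stretch below is 90 bases of the parent's coding sequence and its counterpart in the pseudogene, from GENCODE M21 transcripts on GRCm38, written 5′ to 3′ along the strand of the gene. Capitals mark bases of a pseudogene that differ from the parent. The 4 sets are shown because they hold pairs that differ in no base or in a few bases and that received very different counts. Within a set, the stretch was picked to hold the most pseudogenes with a difference, and then the most differences. It therefore does not stand for the rest of the sequence. For Rps6, a component of the small subunit, the stretch is coding bases 289 to 378. It lies at chr2:75191445-75191534 (minus strand) in Rps6-ps4, at chr9:53689906-53689995 (minus) in Rps6-ps3 and at chr15:76337904-76337993 (plus) in Rps6-ps1.

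Rps6: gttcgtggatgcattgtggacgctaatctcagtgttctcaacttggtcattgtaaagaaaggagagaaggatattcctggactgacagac
Rps6-ps4: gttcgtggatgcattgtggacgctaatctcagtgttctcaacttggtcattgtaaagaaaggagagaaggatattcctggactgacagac
Rps6-ps3: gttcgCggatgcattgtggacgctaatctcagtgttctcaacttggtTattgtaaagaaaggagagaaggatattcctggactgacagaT
Rps6-ps1: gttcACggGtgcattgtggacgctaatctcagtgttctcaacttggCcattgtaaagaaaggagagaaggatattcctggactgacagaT

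Rps6-ps4 had no difference from Rps6 here or anywhere in its 750 bases. Rps6-ps3 differed at 3 of the 90 bases and Rps6-ps1 at 5. For Rpl10, a large subunit protein, the stretch is coding bases 412 to 501, at chr9:50344441-50344530 (minus) in Rpl10-ps3, chr2:105554345-105554434 (minus) in Rpl10-ps1 and chr19:37295296-37295385 (minus) in Rpl10-ps6.

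Rpl10: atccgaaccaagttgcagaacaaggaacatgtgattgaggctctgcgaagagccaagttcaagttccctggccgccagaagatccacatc
Rpl10-ps3: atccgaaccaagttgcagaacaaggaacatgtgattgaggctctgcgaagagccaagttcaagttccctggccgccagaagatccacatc
Rpl10-ps1: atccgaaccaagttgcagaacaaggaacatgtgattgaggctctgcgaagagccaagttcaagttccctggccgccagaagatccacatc
Rpl10-ps6: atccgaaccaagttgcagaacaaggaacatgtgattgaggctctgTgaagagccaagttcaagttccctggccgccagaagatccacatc

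The single capital in Rpl10-ps6 is the only difference in its 642 bases. Rpl10-ps1 had none in 645 bases. For Rps12, of the small subunit, coding bases 30 to 119 are shown, at chr19:59322400-59322489 (plus) in Rps12-ps3, chr8:123206652-123206741 (plus) in Rps12-ps9 and chr2:122220022-122220111 (plus) in Rps12-ps10.

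Rps12: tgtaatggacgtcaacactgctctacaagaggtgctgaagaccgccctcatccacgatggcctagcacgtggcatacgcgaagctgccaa
Rps12-ps3: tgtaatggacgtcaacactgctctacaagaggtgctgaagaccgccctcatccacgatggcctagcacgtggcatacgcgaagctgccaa
Rps12-ps9: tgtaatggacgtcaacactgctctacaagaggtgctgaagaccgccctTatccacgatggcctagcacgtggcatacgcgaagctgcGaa
Rps12-ps10: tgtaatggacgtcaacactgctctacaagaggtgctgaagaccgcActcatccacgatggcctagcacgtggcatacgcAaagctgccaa

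For Rps13, also of the small subunit, coding bases 364 to 453 are shown, at chr7:88530446-88530535 (minus) in Rps13-ps2, chr8:87048083-87048172 (plus) in Rps13-ps1 and chr8:119602173-119602262 (minus) in Rps13-ps4.

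Rps13: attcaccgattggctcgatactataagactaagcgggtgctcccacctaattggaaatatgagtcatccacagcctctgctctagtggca
Rps13-ps2: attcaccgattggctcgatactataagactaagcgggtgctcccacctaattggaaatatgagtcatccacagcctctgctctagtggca
Rps13-ps1: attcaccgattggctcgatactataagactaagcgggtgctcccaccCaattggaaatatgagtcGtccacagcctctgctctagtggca
Rps13-ps4: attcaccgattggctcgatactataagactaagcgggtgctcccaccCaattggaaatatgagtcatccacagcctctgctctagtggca

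Most of the 300 pseudogenes had few counts or none. In all 4 libraries 157 had 0 counts, 111 had a highest count of at least 1 and below 10, 18 one of at least 10 and below 100, and 3 one of at least 100 and below 1000. The remaining 11 had at least 1000 counts in a library and held between 98.7% and 99.2% of all counts given to the family. Summed, the 300 pseudogenes took 60132, 42716, 101503 and 92978 counts in M7, M8, M9 and M10, which is 0.268%, 0.206%, 0.432% and 0.398% of the library totals. The annotation calls 287 of them processed pseudogenes, 7 transcribed processed pseudogenes and 6 protein-coding. The parents numbered 61, all of them counted, and 1 pseudogene had no parent row. Rps12 and Rpl31 had 24 named pseudogenes each, the most of any parent.

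The 11 pseudogenes with many counts were those with the closest match to the parent. To compare sequence and counts, every stretch of 150 bases, the read length in the labels, was taken from a pseudogene and searched in the transcripts of its parent. All such windows were found in the parent for 13 pseudogenes, of which 10 had at least 1000 counts. The remaining 3, Rpl10-ps1, Rpl38-ps2 and Rps13-ps2, had 0 counts in every library. The last of the highly counted ones, Rpl10-ps3, shared 95.5% of its windows and differed from Rpl10 at no base over the 96.4% of its length that aligned. Of the 18 pseudogenes with between 50% and 90% of windows in the parent, none reached 1000 counts and the highest value was 266. Among 62 with some but fewer than 50% shared, the highest value was 301, and among 206 with no shared window it was 38. Copies with a single difference had few counts. There were 11 that differed from the parent by 1 mismatch or gap base over at least 90% of their length. The highest count among them in any library was 13. Of these, Rpl35a-ps2, Rpl35a-ps3, Rpl35a-ps4 and Rpl35a-ps6 share all windows with each other, so they are not separate cases. Among the 36 pseudogenes with 1 to 3 such differences over that length, the highest count was 134.

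**Figure D1:**
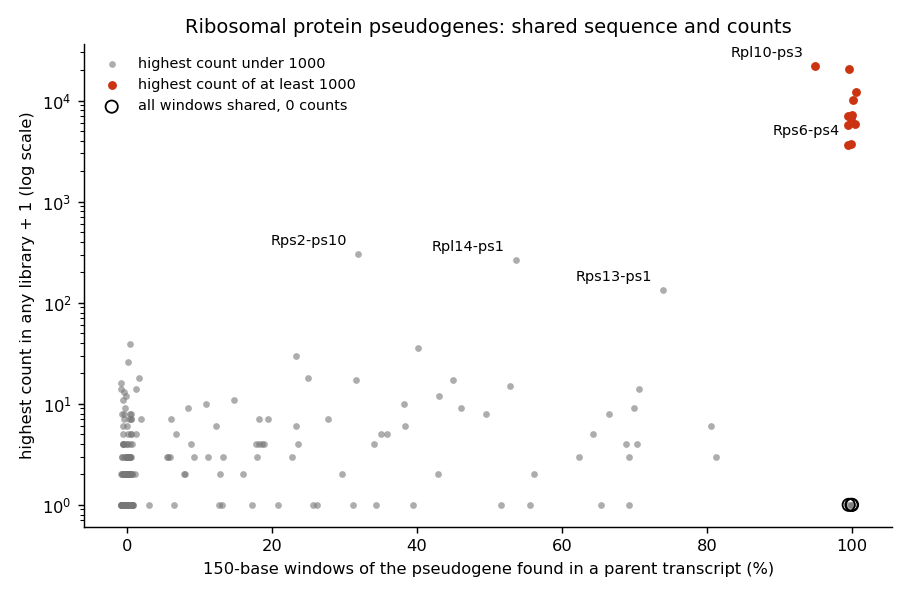
Each of the 300 pseudogenes by the percentage of its 150-base windows found in a parent transcript (x axis, with a small random shift) and its highest count in any library plus 1 (y axis, log scale). The 11 red points, all at 95.5% or more, lie above 1000 counts, while 3 circled pseudogenes with all windows shared had 0 counts.

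The same contrast held within families. Rpl10-ps3 had 16714, 10774, 22039 and 18670 counts in M7, M8, M9 and M10, Rpl10-ps6 with its 1 difference had 6, 2, 8 and 0, and Rpl10-ps1 with none had 0 throughout. Rps12-ps3 had 9838, 7398, 20599 and 18845 counts, while Rps12-ps9, which differed from Rps12 at 2 bases of 399, had 13, 14, 6 and 0, and Rps12-ps10, which differed at 4, had 0 in every library. In the Rps13 family the identical copy Rps13-ps2 had 0 counts and Rps13-ps1, with 2 differences, had 36, 60, 134 and 81. All 11 highly counted copies lacked any difference from the parent over the aligned length, and 3 copies that also lacked any had no counts. A parent's start and stop codon both had a counterpart in 161 pseudogenes, and the reading frame between them was open in 107. Among the 11 highly counted copies it was open in 10, and in the other one, Rps23-ps1, the counterpart was incomplete.

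Positions are given as a description. Of the 300 pseudogenes 93 lay inside or across another annotated gene, 82 of them in introns only. Of the 11, 6 did so. Rps6-ps4 (chr2:75191073-75191822, minus strand) sits on the opposite strand in an intron of the lincRNA gene 2600014E21Rik, which had 7, 16, 0 and 7 counts. Rps12-ps3 (chr19:59322290-59322783, plus) lies opposite an intron of Pdzd8, Rpl28-ps1 (chr1:128038569-128038982, plus) opposite an intron of Zranb3 and Rps16-ps2 (chr5:129128077-129128517, minus) opposite an intron of Adgrd1. Rpl36a-ps2 (chr3:145879020-145879340, plus) lies in an intron of Ddah1 on the same strand. Rps23-ps1 (chr3:37714740-37715164, plus) covers 396 bases of exon of Gm5148 on the opposite strand, and Gm5148 had at most 32 counts in a library. Rpl10-ps3 (chr9:50344201-50344968, minus), Rpl10a-ps1 (chr1:64993951-64994604, minus), Rpl15-ps3 (chr9:22185607-22186221, minus), Rpl31-ps8 (chr15:90764279-90764656, minus) and Rpl27-ps3 overlapped no other gene of the annotation.

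Rps6-ps4 was counted under 1 label only. Its counts in M7, M8, M9 and M10 were 0, 0, 1674 and 3734, so it was counted in both libraries labelled Syk MC-KO and in neither Syk MC-WT library. Set against a floor of 3 counts per library, its normalized level was at least 1230-fold higher in M9 and M10. Its parent Rps6 had 19445, 14047, 24164 and 20215 counts. The counts of Rps6-ps4 were 6.48% of those of Rps6 and its 4 named pseudogenes in M9 (95% Wilson interval 6.18 to 6.78%) and 15.6% in M10 (15.1 to 16.04%), which is beyond counting error between 2 libraries of 1 group. In M7 and M8 a floor of 3 counts would be 0.0154% and 0.0214% of the family. As every window of Rps6-ps4 is also in Rps6, its counts, 0 included, depend on how shared fragments were divided. That division was not examined, and neither the floor, the fold bound nor the intervals cover it. Whether it gave the 0 counts was not tested. Rps6 alone was at 709, 572, 1173 and 1102 CPM, and the sum of Rps6 and Rps6-ps4 at 709, 572, 1254 and 1305 CPM, so the pseudogene row carried 81.3 CPM of the sum in M9 and 203 CPM in M10.

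Rpl10-ps3 held a larger share of its family in M9 and M10 than in M7 and M8. In M7 and M8 Rpl10 had 9231 and 8042 counts, and in M9 and M10 it had 5373 and 3042. Rpl10-ps3 was 64.4% and 57.3% of the Rpl10 family's counts in M7 and M8 and 80.4% and 86.0% in M9 and M10. The share was 60.8% ± 5.05 (SD, n = 2) in Syk MC-WT and 83.2% ± 3.97 (SD, n = 2) under the label Syk MC-KO, a difference of 22.4 percentage points. This difference is several times the SD of either group. With 2 libraries a group an exact permutation test cannot give a two-sided p under 0.333, so no share below carries a test. A share within a library does not depend on how libraries are scaled to each other.

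The highly counted copies took very different parts of their family's counts. Rps12-ps3 held 93.5%, 92.2%, 94.1% and 93.5% in M7, M8, M9 and M10, with only 647, 599, 1275 and 1312 counts left to Rps12. Rpl27-ps3 held 90.6%, 89.1%, 88.1% and 85.2%, against 578, 474, 1366 and 1621 counts for Rpl27. Per transcript base, Rps12-ps3 was counted 14.6 to 19.1 times as highly as Rps12, and Rpl27-ps3 8.65 to 14.5 times as highly as Rpl27. Here the count of the whole parent gene was divided by the length of its best aligned transcript. Below these and Rpl10-ps3 came Rps23-ps1 with 52.9%, 54.5%, 52.7% and 50.8%. Rpl31-ps8 held 40.5%, 41.8%, 45.0% and 50.7%, and Rps16-ps2 36.3%, 37.3%, 37.4% and 35.8%. Lower down were Rpl36a-ps2 with 33.4%, 28.9%, 36.3% and 42.3%, Rpl28-ps1 with 25.1%, 26.9%, 39.8% and 44.7%, Rpl15-ps3 with 23.3%, 21.3%, 32.4% and 33.4%, and Rpl10a-ps1 with 18.8%, 17.9%, 27.0% and 33.4%. The 95% Wilson intervals of these shares were at most 2.68 points wide, which covers counting error only and not the division of shared fragments.

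Of the 11 shares, 7 were higher in both M9 and M10 than in both M7 and M8, 2 were lower and 2 overlapped. One of the 7 is Rps6-ps4, for which the family was proposed, so nothing is read from these counts. Over all genes tested, the levels of 75.2% did not overlap between the labels in one direction or the other. That percentage is of levels and not of shares, for which no value over all genes was computed. Those higher were Rpl10-ps3, Rpl28-ps1 (by 16.3 points), Rpl10a-ps1 (11.9), Rps6-ps4 (11.03), Rpl15-ps3 (10.6), Rpl36a-ps2 (8.14) and Rpl31-ps8 (6.74). Those lower were Rpl27-ps3 (by -3.14 points) and Rps23-ps1 (-1.96), and Rps12-ps3 and Rps16-ps2 overlapped. Differences were uneven within a label too: Rpl10a-ps1 had an SD of 0.632 points in Syk MC-WT and 4.48 in the other group. Over all 300 pseudogenes and 61 parents, the pseudogenes held 7.09% and 6.79% in M7 and M8 and 8.94% and 9.20% in M9 and M10, a difference of 2.13 points. This sum holds Rps6-ps4, which was counted in M9 and M10 only, so nothing is read from the difference.

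**Figure D2:**
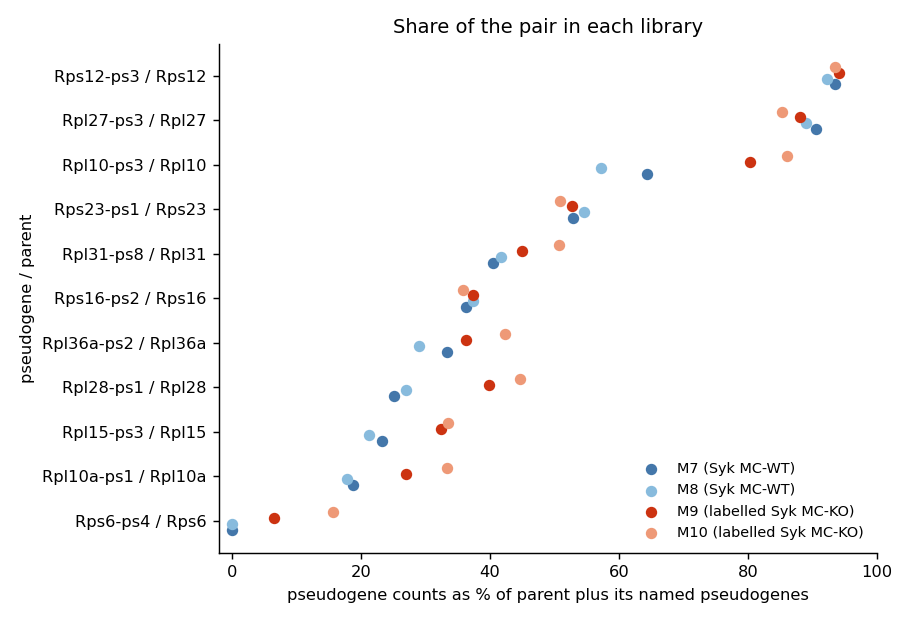
Counts of each of the 11 highly counted pseudogenes as a percentage of the counts of its parent and all named pseudogenes of that parent (x axis), with 1 point per library. Shares run from 0% for Rps6-ps4 in M7 and M8 to 94.1% for Rps12-ps3 in M9, and those of Rpl10-ps3 run from 57.3% to 86.0%.

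The change of each pseudogene between the labels was read from one edgeR fit over 16451 genes, in which 39.4% of genes passed the threshold, 22.7% as higher and 16.7% as lower in M9 and M10. Only 22 of the 300 pseudogenes passed the filter on low counts. Rps6-ps4 and Rps12-ps26 passed it through 1 genotype and had no counts in the other, so they had to differ and are given no test. Of the other 20, 12 rose under the main TMM scaling, a direction that turned for the group under the scaling to leukocyte or macrophage markers described after the values. Among these 20, Rps12-ps9 also passed the filter through Syk MC-WT only, with counts in M9 but none in M10. Nothing is read from its test. The median log2 fold change of the 22 was 1.06, beside 0.02 for all genes tested. Rps6-ps4 and Rps12-ps26 lie at the ends of the 22 values, so leaving out both does not move the median. Nothing is read from this count on its own. Of the cytosolic ribosomal protein genes, most of which are parents here, 83 were tested, 70 rose and 2 fell under TMM (median 0.96), and 0 rose and 81 fell under macrophage marker scaling. Under that scaling 0.76% of all genes rose and 87.3% fell.

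The next values are under TMM, and signs under marker scaling follow them. Among large subunit copies Rpl28-ps1 had 2968, 2417, 6624 and 6702 counts and a log2 fold change of 1.73 (SE 0.17, adjusted p = 0.00138, edgeR). Rpl10a-ps1 had 3536, 2636, 5365 and 7268 (1.47, SE 0.25, adjusted p = 0.00604, edgeR). Rpl27-ps3 had 5595, 3913, 10138 and 9384 (1.47, SE 0.20, adjusted p = 0.00305, edgeR). In each, both M9 and M10 lay above both M7 and M8. Rpl15-ps3 with 3139, 2215, 5838 and 4342 counts rose by 1.35, Rpl36a-ps2 with 2402, 1277, 3622 and 3067 by 1.30, Rpl31-ps8 with 4854, 3702, 7005 and 5843 by 1.01 and Rpl10-ps3 by 0.99 on the log2 scale (adjusted p between 0.00404 and 0.0183, edgeR). Rpl10-ps3, Rpl31-ps8 and Rpl36a-ps2 no longer passed without M8, nor with library size alone.

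Among small subunit copies Rps12-ps3 rose by 1.62 (SE 0.20, adjusted p = 0.0024, edgeR). Rps23-ps1 with 5990, 4473, 12042 and 9713 counts rose by 1.48 (adjusted p = 0.00272, edgeR), and Rps16-ps2 with 4351, 3375, 5751 and 4553 by 0.83 (adjusted p = 0.0121, edgeR), a call that was lost without M7, without M8 and with library size alone (0.30, adjusted p = 0.274, edgeR). A pair of copies with far fewer counts also passed. Rps2-ps10, which differs from Rps2 at 5 bases and shares 32.0% of its windows, had 48, 54, 238 and 301 counts and rose by 2.82 (SE 0.34, adjusted p = 0.00216, edgeR), against 1.04 (SE 0.23) for Rps2 itself. Its share of the Rps2 family was 0.150% and 0.231% in M7 and M8 and 0.541% and 0.735% in M9 and M10. Rps13-ps1 was near the threshold (1.54, SE 0.48, adjusted p = 0.0451, edgeR), and lost the call without M7, without M8, with library size alone (adjusted p = 0.135, edgeR), with DESeq2 size factors (adjusted p = 0.0522, edgeR) and without mitochondrial and rRNA-like genes (adjusted p = 0.0523, edgeR). Rps12-ps26, in an intron of Nol11 on the same strand, had 10, 10, 0 and 0 counts, which is at least 2.50-fold lower in M9 and M10 against a floor of 3 counts per library. It shared no window with Rps12.

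Of the tested copies, 8 did not pass. The one with the most counts was Rpl14-ps1, with 266, 134, 151 and 189 counts and a log2 fold change of 0.22 (SE 0.37). Its groups overlapped, and its share of the Rpl14 family was between 0.99% and 2.26%. Rps19-ps3 had 28, 38, 13 and 24 counts, Rpl19-ps1 20, 12, 14 and 29, Rps19-ps6 35, 9, 6 and 17, and Rpl17-ps4 25, 6, 12 and 1. Rps6-ps1, whose stretch with 5 differences is printed above, had 11, 3, 5 and 17 counts, Rps10-ps4 had 6, 10, 12 and 4, and Rps12-ps9, given above, also did not pass. As Rps12-ps9 met the filter through Syk MC-WT only, nothing is read from its test. For none of the others was a difference detectable at this depth.

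**Figure D3:**
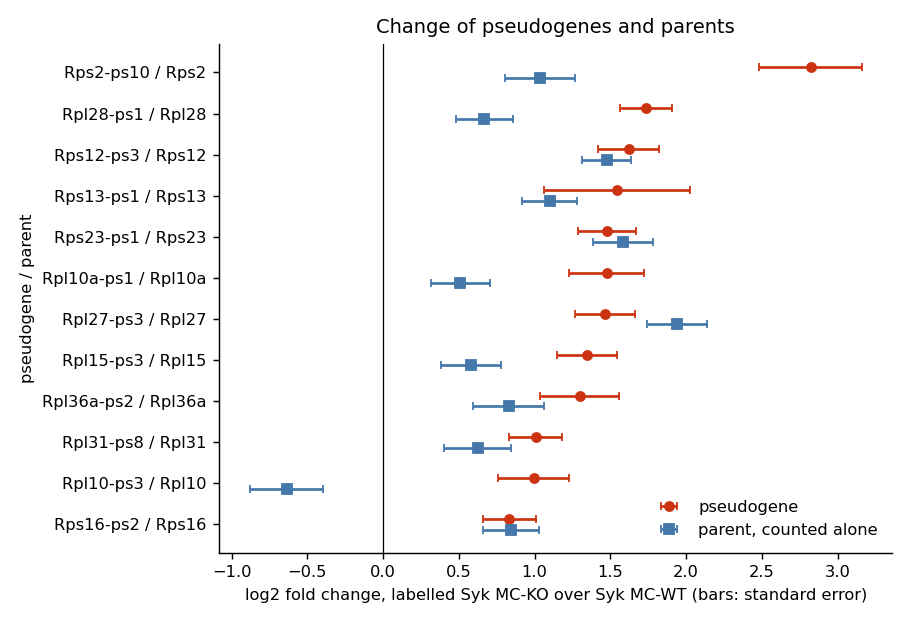
Log2 fold change (x axis, libraries labelled Syk MC-KO over Syk MC-WT, TMM scaling, bars 1 standard error) of the 12 pseudogenes that rose, in red, and of their parents counted alone, in blue. Rpl10-ps3 rose by 0.99 while Rpl10 was at -0.64, and the signs of the pseudogenes turn under marker scaling, except that Rps2-ps10 is at 0.04 with macrophage markers.

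These directions rest on the scaling. The median log2 fold change of all genes was 0.02 under TMM, -0.52 with library size alone, -2.79 when libraries were scaled to macrophage markers and -3.34 when scaled to pan-leukocyte markers. That of the 22 tested pseudogenes was 1.06, 0.51, -1.62 and -2.18 in the same order. It thus lay above the median of all genes in each scaling, while its sign turned. This distance was not tested. Without Rps6-ps4, 12 pseudogenes rose and 1 fell under TMM, 7 rose and 1 fell with library size alone, 0 rose and 15 fell under macrophage markers and 0 rose and 19 fell under pan-leukocyte markers. Rps12-ps26, which had to differ, is 1 of those that fell each time. In neither marker scaling did any of them rise at an unadjusted p under 0.05 (0 of 21, edgeR). In the same 3 alternatives 10.2%, 0.76% and 0.468% of all genes were higher and 32.9%, 87.3% and 91.6% lower. Leaving out M8 took the count of rising pseudogenes from 12 to 7.

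Other pseudogenes were counted beside these. Over all genes tested under TMM, 22.7% were higher and 16.7% lower, 39.4% in either direction, with a median of 0.02. Of 1256 other pseudogenes named with -ps, 52 were tested, 16 were higher and 8 lower (46.2% in either direction), with a median of -0.33. Of 9104 further processed pseudogenes, picked as not named with -ps, 273 were tested, 29 were higher and 50 lower (28.9% in either direction), with a median of -0.65. This second list also holds copies of ribosomal protein genes: Gm10275, Gm15500 and Gm7536, described below, are among the 29. It is therefore not a list of pseudogenes of other genes only. The difference from the ribosomal protein pseudogenes named with -ps was not tested.

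The parents were next read alone and with their copies. Over all genes tested, 22.7% rose and 16.7% fell under TMM, and 0.76% rose and 87.3% fell when scaled to macrophage markers. Of the 61 parents, counted alone, 51 rose and 2 fell under TMM. When scaled to macrophage markers, 0 parents rose (0 also at an unadjusted p under 0.05, edgeR) and 59 fell. Without M8 only 6 rose and 0 fell, and without M7 30 rose and 1 fell. The 2 that fell under TMM were Rps27 and Rpl12. Rpl10 was at -0.64 (SE 0.24, adjusted p = 0.0802, edgeR) and did not pass under TMM with the main filter. It did pass as lower with library size alone (-1.16, adjusted p = 0.0222, edgeR), under both marker scalings, with all genes of at least 1 count (adjusted p = 0.0147, edgeR), with at least 10 counts in every library (adjusted p = 0.0436, edgeR), with DESeq2 (adjusted p = 0.0326) and without M9 (-1.09, adjusted p = 0.000171, edgeR). When the counts of each parent's named pseudogenes were added to the parent, 54 rose and 2 fell. Rpl10 with its copies was then at 0.56 (SE 0.22, adjusted p = 0.0905, edgeR), so its sign turned under TMM, the only scaling in which sums were fitted. Rpl10 and Rpl10-ps3 together were at 856 ± 127 CPM (SD, n = 2) for M7 and M8 and 1257 ± 104 CPM (SD, n = 2) for M9 and M10. Rpl28, of the large subunit, went from 0.67 alone to 1.03 with Rpl28-ps1, and Rpl27 from 1.94 to 1.52 with Rpl27-ps3. Rps6 went from 0.83 (SE 0.21, adjusted p = 0.0247, edgeR) to 1.0. The second value holds the counts of Rps6-ps4, for which the family was proposed, so it is given no test. As Rps6 also passed alone, its sum adds no parent to those that rose. These calls of Rps6 alone, and that of Rps27 alone, were lost without M7 or without M8, that of Rps6 alone also with library size alone, and that of Rpl12 alone without M8. Parents that newly passed after summing were Rpl10a (0.51 to 0.74), Rpl15 (0.58 to 0.79) and Rpl31 (0.62 to 0.79).

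Some copies without a -ps name also held many counts. After these values were seen, the 27 genes outside the family with at least 50% of their 150-base windows in a parent were added to it as well. Of these, 22 had under 100 counts in every library, and 4 had at least 1000 in a library. Gm10275 (chr10:29698746-29699380, minus), with all windows in Rpl12, had 9860, 7280, 13631 and 11084 counts, against 2337, 2386, 1144 and 804 for Rpl12. Rps27rt (chr9:114982366-114982739, minus), an intronless copy of Rps27 annotated as protein-coding and with 87.1% of windows shared, had 3854, 2348, 7069 and 4583, against 4997, 3776, 2187 and 1350 for Rps27. Gm15500, with all windows in Rpl5, had 16790, 12278, 20555 and 17116, against 1662, 1635, 1221 and 1606 for Rpl5. Gm7536, with all windows in Rpl27a, had 10743, 7230, 15726 and 13171. Gm12918, Gm11518, Rps12l1 and Gm14303 also had all windows in a parent, yet each had 0 counts in every library. With the 27 genes added, 56 of 61 parents rose, 0 fell (0 also at an unadjusted p under 0.05, edgeR) and the lowest log2 fold change was 0.43 under TMM. In that fit 3724 of all 16423 genes tested were higher and 2740 lower. Rpl12 went from -0.88 (SE 0.18, adjusted p = 0.0121, edgeR) to 0.70 (SE 0.19, adjusted p = 0.0273, edgeR), and Rps27 from -0.90 (SE 0.22, adjusted p = 0.0209, edgeR) to 0.43 (SE 0.24, adjusted p = 0.185, edgeR). Rpl5 went from 0.21 to 0.75. The spread of the 61 log2 fold changes narrowed from an SD of 0.52 alone to 0.46 with the named pseudogenes and 0.31 with all sharing genes.

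**Figure D4:**
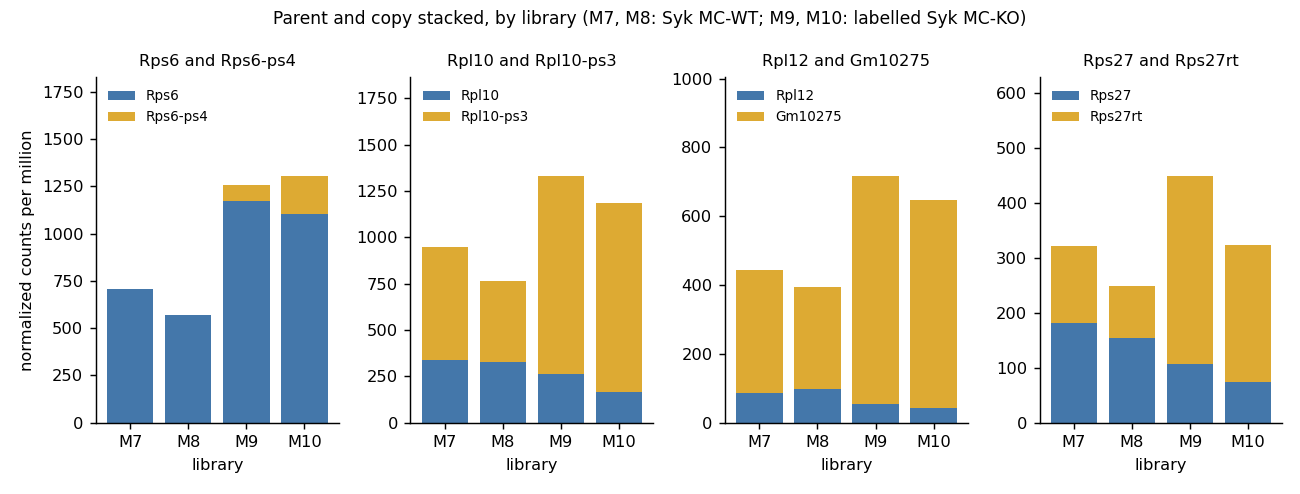
Normalized CPM (y axis, from 0) of a parent, in blue, and 1 copy stacked on it, in yellow, in each library (x axis). The sum is higher in M9 and M10 than in M7 and M8 for Rps6, Rpl10 and Rpl12 under TMM scaling and lies at 323 CPM in M7 and M10 alike for Rps27, while the blue part of Rpl10, Rpl12 and Rps27 is lower in both M9 and M10.

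**Figure D5:**
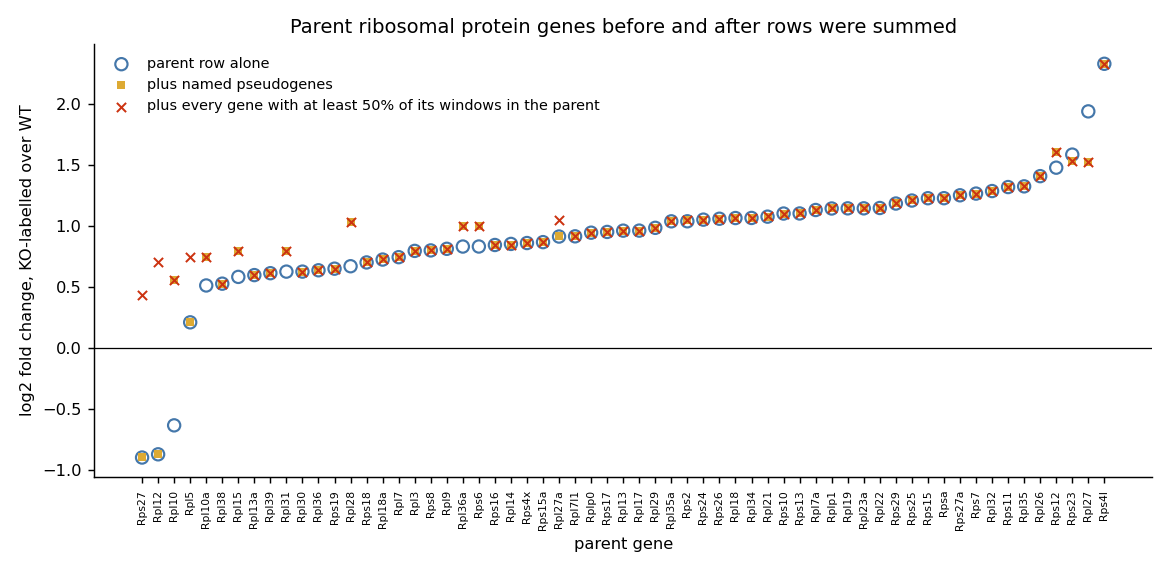
Log2 fold change (y axis, libraries labelled Syk MC-KO over Syk MC-WT, TMM scaling) of the 61 parents, ordered by the value of the parent row alone (blue circles), with named pseudogenes added (yellow squares) and with every gene sharing at least 50% of its windows added (red crosses). The 3 parents below 0 alone, Rps27, Rpl12 and Rpl10, lie between 0.43 and 0.70 as red crosses. Sums were fitted under TMM only. Under marker scaling the signs of all parents counted alone, other than these 3, turn.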

How the data were processed

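TAM RNA was polyA-enriched and sequenced as paired reads of 150 bases per the labels. The study's methods name single reads, mapping to mm10 with STAR and quantification with Salmon; the submitters' processing notes give STAR 2.6.1d and Salmon 1.4.0. The deposited values are whole-number counts per Ensembl gene made by the authors, and how Salmon's estimates became whole numbers, and which transcriptome and index options (decoys, removal of duplicate sequences) Salmon used, is not given in the sources used here. These options bear on every pseudogene count, the 0 counts of identical copies included. The 4 columns were matched to samples by title, and 54495 genes to GENCODE M21.

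Members, lists and alternatives were chosen with earlier results of these data known. Libraries were tested with edgeR 4.0.16 (filterByExpr, TMM, quasi-likelihood, Benjamini-Hochberg over all genes, threshold 0.05), after a check on simulated data; DESeq2 1.42.0 was an alternative. Level means TMM-normalized CPM. Pseudogenes were aligned locally to every parent transcript (Biopython 1.88; match 1, mismatch -2, gap open -4, extension -1). No genome was used, so flanks were not compared. Named were the 20 members with the highest mean CPM, those at 0 in 1 genotype with at least 10 counts in both libraries of the other, and called members of at least 1 CPM; silent copies and Gm-named copies were named after their values were seen. Replicates of each genotype differed beyond counting noise. The full B cell and tumor marker lists are not reported here.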

Additional observations from a re-analysis of the deposited data

How the results depend on the processing

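Pseudogenes that rose under TMM kept their sign with library size alone, and nearly all turned under marker scaling. Rpl10, Rpl12 and Rps27 counted alone, and Rps12-ps26, had negative log2 fold changes in every scaling. Shares within a library do not depend on the scaling. Genes higher numbered 3729 under TMM and 1677, 125 and 77 with library size alone, macrophage markers and pan-leukocyte markers, and genes lower 2747, 5411, 14360 and 15072. Pseudogenes higher, Rps6-ps4 left out throughout, numbered 12, 7, 0 and 0 and lower 1, 1, 15 and 19. Parents higher numbered 51, 11, 0 and 0 and lower 2, 3, 59 and 60, and cytosolic ribosomal protein genes higher 70, 15, 0 and 0 and lower 2, 3, 81 and 83. Under macrophage and pan-leukocyte markers the log2 fold changes turned to -1.78 and -2.34 for Rpl10-ps3, -1.17 and -1.72 for Rps12-ps3, -1.33 and -1.88 for Rps23-ps1, -1.31 and -1.87 for Rpl27-ps3, -1.80 and -2.35 for Rpl31-ps8, -1.05 and -1.61 for Rpl28-ps1, -1.25 and -1.82 for Rpl10a-ps1, -1.98 and -2.53 for Rps16-ps2, -1.47 and -2.01 for Rpl15-ps3, -1.46 and -2.02 for Rpl36a-ps2, -1.40 and -1.91 for Rps13-ps1 and -1.97 and -2.52 for Rps6, and Rps2-ps10 turned to -0.51 under the second. These alternatives set the markers, which rose, to no change.

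Rps12-ps26, the 1 pseudogene that was lower and one that passed the filter through 1 genotype, dropped out before testing with at least 10 counts in every library and without mitochondrial and rRNA-like genes, and DESeq2 did not call it, so 0 were lower in each of the 3 (0, 0 and 1 at an unadjusted p under 0.05). When calls also needed a log2 fold change of 1 or more in size, 2426 genes, 28 parents and 39 cytosolic ribosomal protein genes were higher, and 0 parents and 0 cytosolic ribosomal protein genes lower. Leaving out each library in turn gave 1478 to 5010 genes higher and 807 to 4745 lower, 7 to 13 pseudogenes higher and 0 to 3 lower, 6 to 55 parents higher and 0 to 3 lower, and 10 to 77 cytosolic ribosomal protein genes higher and 0 to 3 lower. A lone library of a genotype is then assumed to vary like the other group. Sums were fitted under TMM only. Before scaling, Rps27 and Rps27rt together had 8851, 6124, 9256 and 5933 counts in M7, M8, M9 and M10. Under TMM, Rpl10 turned to 0.56 with its named pseudogenes and with all sharing genes. With all sharing genes, 0 parents were lower, Rpl12 turned to 0.70 and Rps27 to 0.43. That last sum was added after the data were seen. The pooled pseudogene share, which holds Rps6-ps4, differed by 1.98 to 2.28 points when a library was left out, and nothing is read from it. With windows of 100 and 75 bases, 150 and 181 pseudogenes in place of 94 shared a window with the parent, while 13 shared all in each case. No paired analysis was possible because the replicate numbers 7 and 8 of Syk MC-WT and 9 and 10 of Syk MC-KO are not shared. Depth limits the copies with few counts, for which 3 counts per library is the floor.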
